A study of Mus musculus with 56 samples.

Results

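Genes that carry or control calcium and magnesium along the distal nephron were followed in mouse kidney under inverted feeding. They were Trpv5, Calb1, S100g, Slc8a1, Trpm6, Egf, Casr, Cldn16, Cldn19 and Umod, chosen by name for their known roles, and all 10 were found among the 17027 genes of the expression table and among the 11931 genes that could be tested. Kidneys came from 56 female C57BL/6J mice aged 9 weeks, which had been kept on a cycle of 12 h light and 12 h dark and then given food only in the daytime (DRF, daytime-restricted feeding) or only at night (NRF, nighttime-restricted feeding, the control) for 7 days. The labels name no engineered allele, and 4 mice per regimen were killed at each of 7 zeitgeber times (ZT, hours after lights on; lights off at ZT12), namely ZT0, 4, 8, 12, 16, 20 and 24, which made 14 groups of separate mice. Whole kidney poly(A) RNA was sequenced, so a value cannot tell apart fewer cells of a segment and less RNA per cell.

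Calcium that reaches the distal convoluted and connecting tubules is reabsorbed through the cell: it enters by the apical channel TRPV5, is ferried by the binding proteins calbindin-D28k and calbindin-D9k, and leaves across the basolateral membrane through the sodium-calcium exchanger NCX1 and calcium pumps. Magnesium enters distal convoluted tubule cells through the TRPM6 channel, whose activity is raised by epidermal growth factor. In the thick ascending limb, upstream of both, calcium and magnesium pass between the cells through pores built from claudin-16 and claudin-19, under the control of the calcium-sensing receptor, and uromodulin is the protein that these cells secrete most.

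The label of the tissue was checked against segment markers. All 7 thick ascending limb markers, all 6 distal convoluted tubule markers and all 7 connecting tubule and principal cell markers passed the expression filter. The summed level of the first list was 2106 to 4433 CPM (reads of a gene per M reads of the library, M for mega) under NRF and 2170.2 to 4368 CPM under DRF. Libraries differed in their level of inner medulla markers. The mean log2(CPM + 1) of Slc14a2, Fxyd4, Aqp4 and Akr1b3 ran from 3.73 to 7.51 under NRF and from 3.62 to 7.68 under DRF. This inner medulla level is given beside the results that moved with it. Of the 4 markers, Fxyd4 was itself called for a 24-h rhythm that differed between regimens (adjusted p = 0.048, limma). Whether the level follows tissue content alone was not tested. Each library held 21.2 to 23.8 M recovered reads, and the member with the fewest reads in any library, Cldn16, had 201 there.

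Levels were compared between genes per length, as RPKM (CPM per kilobase). Umod on chromosome 7 (119462708 to 119479262, GRCm38.p6) was the most abundant member, at 1415 ± 305 RPKM (SD, n = 56 libraries), followed by S100g on chromosome X (162961992 to 162964599), which encodes calbindin-D9k, at 1086 ± 263 RPKM. Umod exceeded S100g in 44 of 56 libraries, so this pair was not separated in every mouse. Egf on chromosome 3 (129677574 to 129755322) stood at 185 ± 33.1 RPKM, Calb1 on chromosome 4 (15881264 to 15906709), which encodes calbindin-D28k, at 134 ± 35.8 RPKM, and Slc8a1 on chromosome 17 (81373105 to 81738387), which encodes NCX1, at 97.5 ± 33.2 RPKM. Calb1 was above Slc8a1 in all 56 libraries even though the ranges over mice and times overlapped. Casr on chromosome 16 (36490585 to 36562141), the calcium-sensing receptor, followed at 28.6 ± 4.22 RPKM and varied least relative to its mean. Cldn19 on chromosome 4 (119255441 to 119262438) was at 13.4 ± 3.72 RPKM. Trpv5 on chromosome 6 (41651661 to 41681224) and Cldn16 on chromosome 16 (26463135 to 26482765) had the same mean of 10.3 RPKM, with SDs of 1.95 and 1.71, and Trpv5 was the higher of the pair in 29 of 56 libraries. Trpm6 on chromosome 19 (18730177 to 18892521) was the lowest, at 5.41 ± 1.13 RPKM. Of the members on the transcellular calcium route, S100g, Calb1 and Slc8a1 were thus present at higher levels per length than the entry channel Trpv5. The calcium pumps were not compared per length, and the length used for Slc8a1 was found by search.

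**Figure D1:**
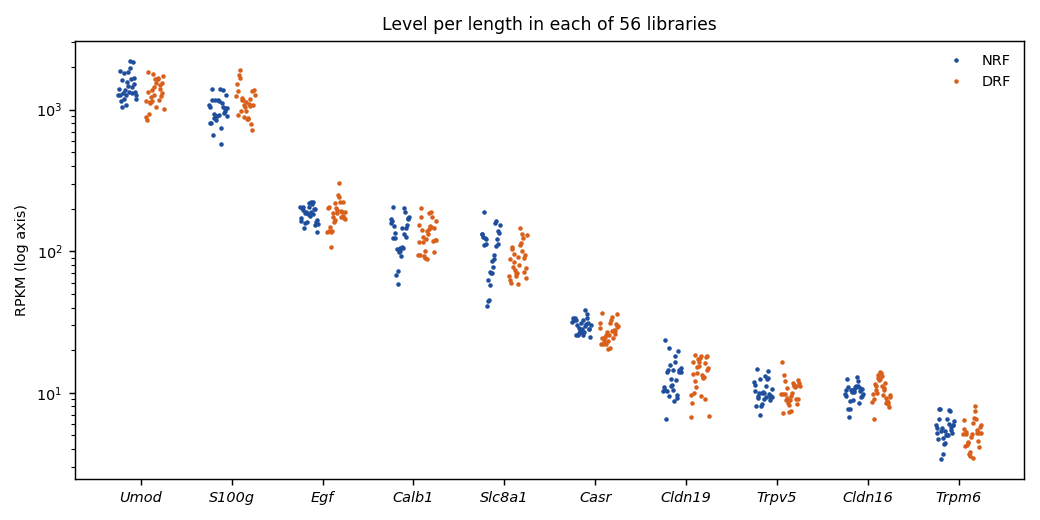
Level per length (RPKM, log axis) of the 10 genes in each of the 56 libraries, NRF in blue and DRF in orange, ordered by mean. The libraries of Umod and S100g lie between 575 and 2221 RPKM, and Trpm6 at the right end averages 5.41 RPKM.

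The start regions of S100g, Slc8a1 and Cldn16, from RefSeq, are shown because their 24-h profiles differed between the regimens. Calb1 had no window. Each run is the 250 bases before the annotated start, read 5′ to 3′ on the strand of the gene, GRCm38.p6. Capitals mark AGGTCA on either strand (TGACCT on the other), the half-site that nuclear receptors bind.
S100g, chrX:162964600-162964849, minus strand: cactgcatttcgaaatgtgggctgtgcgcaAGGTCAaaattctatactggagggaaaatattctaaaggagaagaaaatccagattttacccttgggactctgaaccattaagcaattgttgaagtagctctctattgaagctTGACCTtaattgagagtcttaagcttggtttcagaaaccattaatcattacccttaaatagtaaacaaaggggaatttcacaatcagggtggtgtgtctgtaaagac
Slc8a1, chr17:81738388-81738637, minus strand: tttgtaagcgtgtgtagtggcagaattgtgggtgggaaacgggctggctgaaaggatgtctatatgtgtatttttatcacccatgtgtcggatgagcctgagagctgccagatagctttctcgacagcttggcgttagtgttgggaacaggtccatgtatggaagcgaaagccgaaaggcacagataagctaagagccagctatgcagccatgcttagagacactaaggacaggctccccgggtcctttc
Cldn16, chr16:26462885-26463134, plus strand: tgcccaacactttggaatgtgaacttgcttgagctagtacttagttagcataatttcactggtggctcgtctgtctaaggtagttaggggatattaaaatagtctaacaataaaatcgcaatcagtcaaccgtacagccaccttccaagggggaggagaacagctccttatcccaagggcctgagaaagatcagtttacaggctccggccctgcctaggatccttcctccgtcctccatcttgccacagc
S100g held the half-site 220 and 107 bases before its start, in opposite orientation. At least 1 copy stood in 14% of 32851 windows of the same length, and 1.36% held 2 or more. The windows of Slc8a1, Cldn16, Trpv5, Trpm6, Egf, Umod, Casr and Cldn19 held none. CACGTG, the E-box bound by the clock activators, which reads the same on both strands, was found in 6.02% of all windows and in none of the windows of the 9 members matched. These are matches of letters and carry no measurement of binding.

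Daily rhythm was assessed with a 24-h cosine fitted to log2(CPM + 1) in each regimen (28 mice), in limma, with Benjamini-Hochberg adjustment over all 11931 genes and a threshold of 0.05. Under NRF 6 of the 10 members were called rhythmic (Calb1, Slc8a1, Trpm6, Egf, Umod and Cldn16), beside 54.6% of all genes tested, and under DRF 5 were called (Trpm6, S100g, Egf, Casr and Cldn16), beside 41.0%. The rhythm itself differed between regimens for 4 members (Calb1, S100g, Slc8a1 and Cldn16; interaction of regimen and cosine), beside 50.0% of all genes. As shares, these counts lie near those of the whole kidney transcriptome. Trpm6, Egf and Cldn16 were rhythmic in both, 3 of 10, beside 26.8%. On the log2 scale the members had a median amplitude of 0.15 (NRF) and 0.20 (DRF), against 0.13 and 0.11 over all genes tested.

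**Figure D2:**
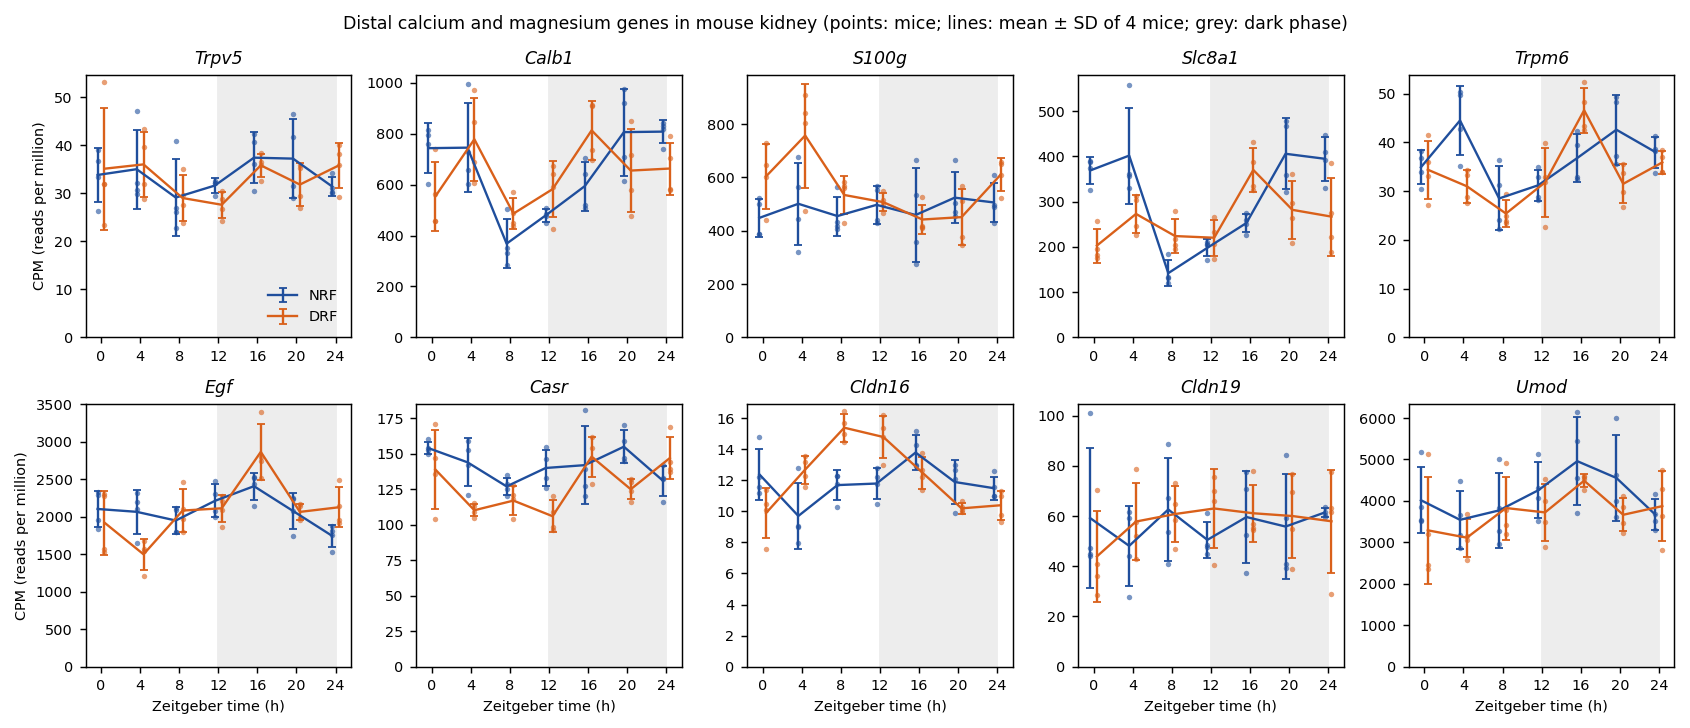
CPM of each member by zeitgeber time, NRF in blue and DRF in orange, with points for single mice, lines for the mean and bars for the SD of 4 mice. Slc8a1 falls from 402 CPM at ZT4 to 142 CPM at ZT8 under NRF while DRF runs between 203 and 370.2 CPM, and Cldn16 reaches its DRF high at ZT8.

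Slc8a1, the basolateral exit step, had the largest NRF amplitude of the members. At ZT0 the 4 NRF mice had 326, 374, 388 and 389 CPM and the 4 DRF mice 175, 183, 195 and 258 CPM. At ZT8 the order was the other way round, with 119.9, 131, 133 and 184 CPM under NRF and 196, 205, 217 and 279 CPM under DRF. The groups did not overlap at either time, where 22.0% (ZT0) and 23.2% (ZT8) of all genes did not overlap between regimens. Under NRF the gene fell from 402 ± 106 CPM at ZT4 to 142 ± 28.4 CPM at ZT8 (SD, n = 4) and climbed again through the dark phase to 406 ± 78.4 CPM at ZT20, a ratio of 2.86 between its highest and lowest group. The NRF cosine had an amplitude of 0.68 ± 0.08 (SE, log2 scale) with its peak at 22.5 ± 0.508 h (limma, adjusted p = 6.11e-07). Under DRF the amplitude was 0.22 ± 0.10, which was not called (adjusted p = 0.147, limma), and the interaction was (adjusted p = 4.07e-05, limma).

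At single times Slc8a1 was lower under DRF at ZT0 by a log2 difference of -0.88 ± 0.18 (SE; adjusted p = 0.000271, limma), where 21.1% of all genes tested were called. It was also lower at ZT4 (-0.54 ± 0.18, adjusted p = 0.0168, limma; 31.9% of all genes called), at ZT20 (-0.53 ± 0.18, adjusted p = 0.0255; 21.5%) and at ZT24 (-0.60 ± 0.18, adjusted p = 0.0125; 17.4%). It was higher at ZT8 (0.66 ± 0.18, adjusted p = 0.00623, limma; 19.2%) and, just inside the threshold, at ZT16 (0.54 ± 0.18, adjusted p = 0.0497; 7.45%). At ZT16 the DRF mice had 326, 335, 388 and 432 CPM and the NRF mice 227, 249.7, 260.3 and 276 CPM. These again did not overlap, beside 11.5% of all genes. At ZT4 the NRF mice had 330.1, 356, 361 and 559 CPM and the DRF mice 227, 247, 304 and 313 CPM. These did not overlap either, as for 21.2% of all genes. The NRF mouse at 559 CPM stood apart from its group and had the lowest inner medulla level of the NRF libraries, 3.73. Without the replicate 1 libraries, that mouse and the DRF mouse at 304 CPM among them, the ZT4 difference was -0.42 (adjusted p = 0.133, limma). When the mice of 1 replicate number at a time were left out, the ZT0 call held each time (adjusted p up to 0.0113, limma). The ZT4 call was also lost without replicate 3 (0.112), the ZT8 call without replicate 1 (0.119), the ZT20 call without replicate 1, 3 or 4 (up to 0.121), the ZT24 call without replicate 2 or 3 (up to 0.134) and the ZT16 call each time (up to 0.231), as well as with TPM scaling (0.0543), the deposited values (0.102) and no filter (0.06).

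Calb1, whose protein buffers and shuttles calcium inside the cell, had a profile close to that of Slc8a1 (Pearson r = 0.93 over the 14 group means, which share their libraries; a description). Under NRF it fell to 285, 329.8, 349.9 and 505 CPM at ZT8 and stood at 741, 817, 832 and 841 CPM at ZT24, with no overlap and a ratio of 2.20 between the group means. Its NRF amplitude was 0.51 ± 0.07 with a peak at 22.1 ± 0.585 h (adjusted p = 6.66e-06, limma). Under DRF it was 0.14 ± 0.09 (adjusted p = 0.414, limma), and the interaction was called (adjusted p = 0.00611). No single time passed for Calb1 in the fit without further terms: the widest differences were -0.44 at ZT0 (95% interval -0.81 to -0.08, adjusted p = 0.0727, limma), 0.46 at ZT16 (0.09 to 0.82, adjusted p = 0.118) and 0.43 at ZT8 (0.06 to 0.79, adjusted p = 0.0902). The sign of these differences was the same as that of Slc8a1 at the same times. With the inner medulla level in the fit Calb1 was called at ZT0 (adjusted p = 0.000623, limma), ZT8 (0.0103), ZT16 (0.00309) and ZT24 (0.0321). It was also called at ZT0 with TPM scaling (0.0285) and at ZT8 without replicate 2 (0.034).

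S100g encodes the smaller calbindin, a classical target of vitamin D. Its mean moved little under NRF, between 448 ± 71.8 CPM at ZT0 and 524 ± 96.8 CPM at ZT20 (amplitude 0.03 ± 0.08, adjusted p = 0.938, limma). Under DRF it was 473, 803, 843 and 910.2 CPM at ZT4 and 409.5, 415, 418 and 525 CPM at ZT16, so 3 of 4 mice at ZT4 lay above every mouse at ZT16. The DRF cosine had an amplitude of 0.33 ± 0.07 with a peak at 4.03 ± 0.767 h (adjusted p = 0.00219, limma). The NRF mice at ZT4 had 319, 445, 564 and 676 CPM, which overlapped with the lowest DRF mouse, and the difference there was 0.61 ± 0.21 (adjusted p = 0.0218, limma). The interaction was close to the threshold (adjusted p = 0.043, limma). It missed it when the inner medulla level entered the fit (adjusted p = 0.0665), without ZT24 (0.0713), with no expression filter (0.0505) and without the replicate 1 or the replicate 3 libraries (0.305 and 0.361). The ZT4 difference was 0.31 without the replicate 3 libraries (adjusted p = 0.44, limma) and 0.62 without those of replicate 1 (adjusted p = 0.069), and the DRF rhythm was 0.26 in amplitude without replicate 3 (adjusted p = 0.0761). The calbindins thus had unlike profiles in the same libraries.

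Trpv5, the apical entry channel, was between 29.1 ± 8.06 and 37.4 ± 5.36 CPM under NRF and between 27.6 ± 2.72 and 36.0 ± 6.69 CPM under DRF. It was called in none of the tests, and with the inner medulla level in the fit the 12-h component under DRF was called (adjusted p = 0.0325, limma). The cosine amplitude was 0.14 ± 0.07 under NRF (adjusted p = 0.20, limma) and 0.13 ± 0.06 under DRF (adjusted p = 0.217), and the mean over the clock differed by -0.05 (95% interval -0.18 to 0.09, adjusted p = 0.713). A difference of up to 0.18 lower or 0.09 higher under DRF is therefore within its interval. Trpv6, the neighbouring and closely similar calcium channel on chromosome 6, was at a median of 2.30 CPM, and reads that match both genes could have been assigned to either.

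**Figure D3:**
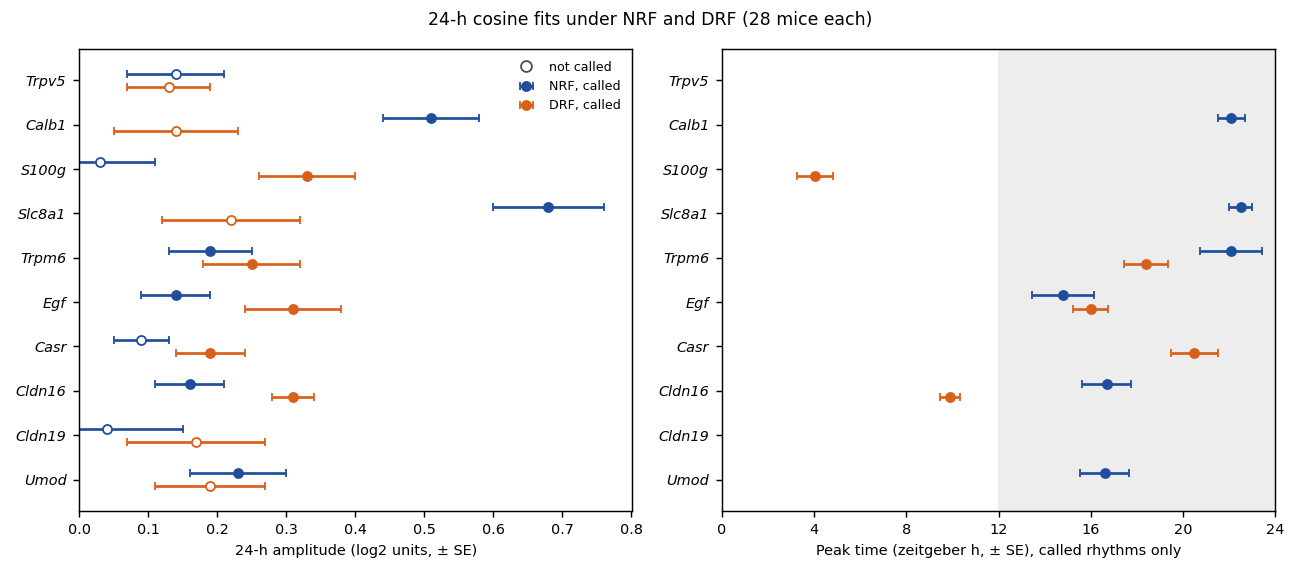
Left, amplitude of the 24-h cosine (log2 units, ± SE) for each member under NRF (blue) and DRF (orange), filled where the adjusted p was under 0.05. Right, peak time (zeitgeber hours, ± SE) of the called rhythms, with the dark phase in grey. Slc8a1 and Calb1 have the largest amplitudes under NRF, 0.68 and 0.51, and Cldn16 peaks at 16.7 h under NRF and 9.90 h under DRF.

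Trpm6, the magnesium channel, was rhythmic in both regimens, with an amplitude of 0.19 ± 0.06 and a peak at 22.1 ± 1.35 h under NRF (adjusted p = 0.0351, limma) and 0.25 ± 0.07 with a peak at 18.4 ± 0.943 h under DRF (adjusted p = 0.0179). The shift of -3.74 ± 1.65 h came with an interaction that was not called (adjusted p = 0.14, limma), and it was called once the inner medulla level entered the fit (adjusted p = 0.0102). At ZT4 the NRF mice had 35.1, 42.8, 49.7 and 50.3 CPM and the DRF mice 27.6, 28.7, 33.3 and 34.4 CPM. The groups did not overlap, beside 21.2% of all genes, and the log2 difference was -0.50 ± 0.14 (adjusted p = 0.00491, limma). At ZT20 the values were 35.6, 37.3, 48.3 and 49.3 CPM under NRF and 26.7, 29.9, 33.8 and 35.6 CPM under DRF (difference -0.42 ± 0.14, adjusted p = 0.0257, limma). At ZT16 the DRF mice had 42.5, 43.3, 48.3 and 52.4 CPM and the NRF mice 32.5, 32.9, 39.4 and 42.3 CPM. These did not overlap, beside 11.5% of all genes, yet the difference of 0.34 was not called (95% interval 0.06 to 0.62, adjusted p = 0.133, limma). It was called with the inner medulla level in the fit (adjusted p = 0.0059, limma). With 1 replicate number left out, the adjusted p reached 0.13 for the NRF rhythm (lost without replicate 1, 2 or 3, and without ZT24), 0.0942 for the DRF rhythm (1, 2 or 3), 0.0766 at ZT4 (replicate 3) and 0.103 at ZT20 (1, 2 or 4).

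Egf, whose product stimulates TRPM6, peaked early in the dark phase in both regimens, at 14.8 ± 1.35 h under NRF (amplitude 0.14 ± 0.05, adjusted p = 0.0469, limma) and at 16 ± 0.756 h under DRF (0.31 ± 0.07, adjusted p = 0.00191). Its DRF range was wide: 1203, 1541, 1573 and 1674 CPM at ZT4 and 2521, 2745, 2795 and 3398 CPM at ZT16, without overlap. The larger DRF amplitude was not shown to differ from the NRF one (interaction adjusted p = 0.153, limma; 0.0467 without ZT24). At ZT4 the NRF mice had 1645, 2104, 2202 and 2310 CPM, and DRF was lower by a log2 difference of -0.46 ± 0.13 (adjusted p = 0.00402, limma). The call of the NRF rhythm was lost in 7 of 13 alternative settings, with TPM scaling among them (adjusted p = 0.114, limma), and its p reached 0.489 without replicate 3. The ZT4 call was lost without replicate 2 (0.103), and the DRF rhythm held in every setting.

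Cldn16, the thick ascending limb claudin needed for magnesium reabsorption, was the member whose peak moved furthest among those rhythmic in both regimens. Under DRF the mice had 14.5, 15, 15.7 and 16.5 CPM at ZT8 and 7.61, 10.1, 10.5 and 11.4 CPM at ZT0. Under NRF the values at the same times were 10.3, 11.8, 12.3 and 12.3 CPM at ZT8 and 11.2, 11.6, 12.2 and 14.8 CPM at ZT0. The regimens did not overlap at ZT8, beside 23.2% of all genes, and the NRF high came later, at ZT16, with 12.9, 13, 14.3 and 15.2 CPM. The cosine peaked at 16.7 ± 1.06 h under NRF (amplitude 0.16 ± 0.05, adjusted p = 0.0226, limma) and at 9.90 ± 0.424 h under DRF (0.31 ± 0.03, adjusted p = 2.02e-07). The peak was thus earlier under DRF by 6.84 h (shift -6.84 ± 1.14 h, SE; interaction adjusted p = 2.13e-06, limma). DRF exceeded NRF by 0.37 ± 0.10 at ZT4 (adjusted p = 0.0038, limma), by 0.38 ± 0.10 at ZT8 (adjusted p = 0.00603) and by 0.30 ± 0.10 at ZT12 (adjusted p = 0.0221; 24.3% of all genes called), and it was below NRF at ZT0 (-0.31 ± 0.10, adjusted p = 0.0219). The interaction and the DRF rhythm held with any replicate number left out, while the NRF rhythm was lost without replicate 1, 3 or 4 (adjusted p up to 0.218, limma). The single-time calls were lost without replicate 1 in each case (0.0758 at ZT8) and at the other 3 times also without 1 or 2 other numbers (up to 0.152 at ZT0, 0.0852 at ZT4 and 0.167 at ZT12). At ZT20 the difference, -0.19 and not called, passed the threshold when the replicate 2 libraries were left out (adjusted p = 0.0484, limma).

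Cldn19, its partner in the tight junction, was called in no test. It ranged from 48.1 ± 15.8 to 62.6 ± 20.6 CPM under NRF and from 43.9 ± 18.2 to 63.0 ± 15.6 CPM under DRF, and the SD inside a group reached 27.8 CPM. The mean over the clock differed by 0.08 (95% interval -0.15 to 0.31, adjusted p = 0.725, limma). At NRF ZT0 one mouse had 101 CPM and the others 44.0, 44.8 and 47.1 CPM, and that mouse had an inner medulla level of 7.14.

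Casr, the receptor that lowers thick ascending limb calcium reabsorption when blood calcium rises, was the 1 member whose mean over the clock differed, beside 9.67% of all genes tested (4.52% lower). It was lower under DRF by a log2 difference of -0.19 ± 0.04, or -12.2% (95% interval of the log2 difference -0.27 to -0.11; adjusted p = 0.00197, limma). At ZT4 the 4 NRF mice had 121, 142, 153 and 159 CPM and the 4 DRF mice 105, 109, 113 and 115 CPM. At ZT12 the values were 126, 133, 146 and 155 CPM under NRF and 96.1, 98.1, 109 and 119.9 CPM under DRF. At ZT20 they were 145, 147, 159 and 170.0 CPM under NRF and 116, 124, 129.8 and 132 CPM under DRF. The groups did not overlap at any of these 3 times. The same held for 21.2% of all genes at ZT4, 22.4% at ZT20 and a larger share at ZT12. The differences were -0.37 ± 0.11 (adjusted p = 0.00533, limma; 31.9% of all genes called), -0.40 ± 0.11 (adjusted p = 0.0039; 24.3%) and -0.31 ± 0.11 (adjusted p = 0.0307; 21.5%). At ZT0, ZT8, ZT16 and ZT24 no difference was called, with values of -0.17, -0.12, 0.07 and 0.17. The lower mean held with any replicate number left out (adjusted p up to 0.0391, limma), while the ZT4 call was lost without replicate 1 or 2 (up to 0.0817), that at ZT12 without replicate 4 (0.0651) and that at ZT20 without replicate 1, 2 or 4 (up to 0.14), on the TPM scale (0.0981) and with the deposited values (0.0605). A rhythm was called under DRF (0.19 ± 0.05, peak 20.5 ± 1.04 h, adjusted p = 0.0175, limma) and not under NRF (0.09 ± 0.04, adjusted p = 0.186), and the rhythms were not shown to differ (interaction adjusted p = 0.435). The DRF call was lost without replicate 1 or 2 (adjusted p up to 0.0947, limma). Without ZT24 the calls changed places: the NRF rhythm was called (0.0407) and the DRF rhythm was not (0.0611).

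Umod was called rhythmic under NRF, with an amplitude of 0.23 ± 0.07 and a peak at 16.6 ± 1.07 h (adjusted p = 0.0225, limma), and not under DRF (0.19 ± 0.08, adjusted p = 0.135). The difference between these rhythms was not called (interaction adjusted p = 0.789, limma), and the NRF call was lost without replicate 2, 3 or 4 (adjusted p up to 0.386), without ZT24 and on the TPM scale. Without replicate 4 the DRF rhythm was called (adjusted p = 0.0488, limma). Its 4 mice at NRF ZT16 had 3698, 4555, 5441 and 6138 CPM, and those at DRF ZT16 4259.9, 4518, 4574 and 4598 CPM, which lay inside the NRF range. The lowest Umod values were 2352 and 2452 CPM in 2 mice at DRF ZT0. The mean over the clock differed by -0.15 (95% interval -0.31 to 0.01, adjusted p = 0.227, limma).

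**Figure D4:**
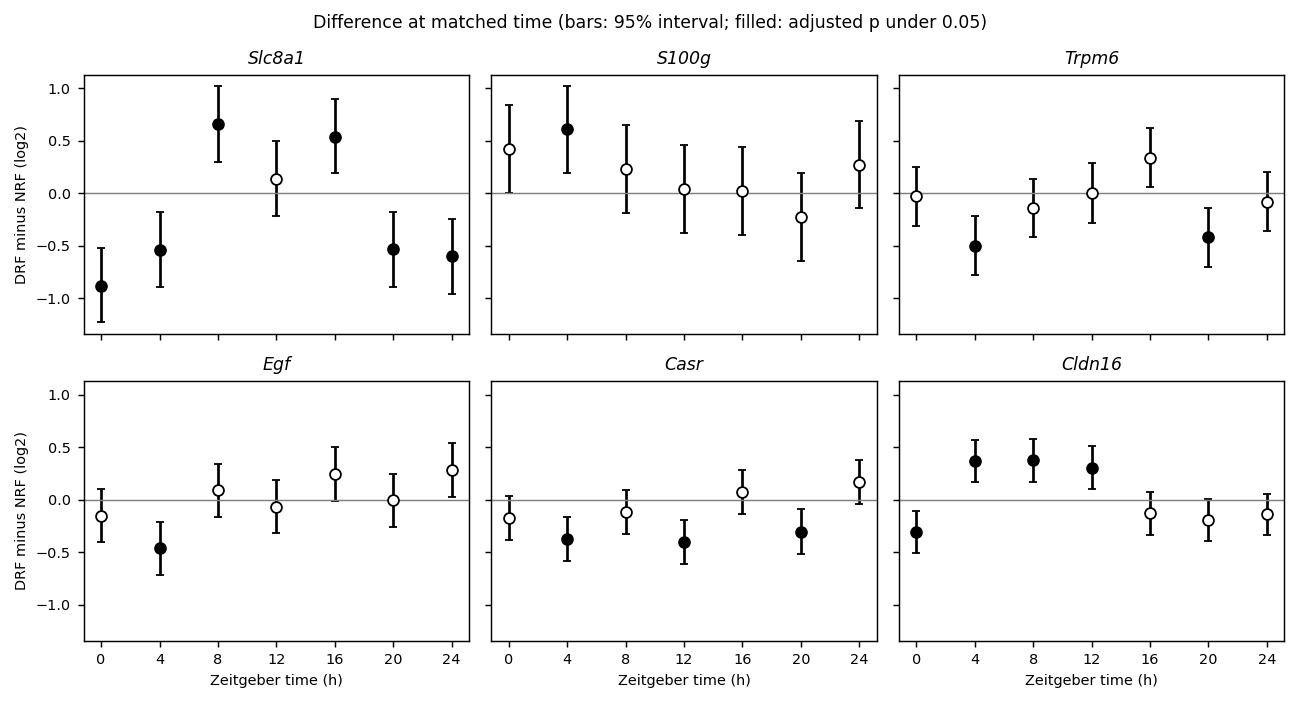
DRF minus NRF (log2) at each zeitgeber time for the 6 members with at least 1 called time, with 95% intervals and filled points where the adjusted p was under 0.05. Slc8a1 is called at 6 of 7 times, with -0.88 at ZT0 and 0.66 at ZT8, while the 3 called values of Casr are all below 0.

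ZT4 was the time at which most members differed, and also the time at which most of all genes tested did. There 6 of 10 members were called, beside 31.9% of all genes. S100g and Cldn16 were higher under DRF (17.5% of all genes were), and Trpm6, Slc8a1, Egf and Casr were lower (14.5%), so the members did not move in 1 direction. The median size of the difference at ZT4 was 0.37 over the members and 0.16 over all genes tested. At ZT0 the medians were 0.33 and 0.14, at ZT8 0.13 and 0.13, and at ZT12 0.20 and 0.14. At ZT16 they were 0.13 and 0.10, at ZT20 0.26 and 0.13, and at ZT24 0.17 and 0.12. The distal convoluted tubule markers, taken as a mean, were 0.22 lower under DRF at ZT4, 0.25 lower at ZT12 and 0.27 lower at ZT20 (differences of -0.22, -0.25 and -0.27). Elsewhere they differed by 0.06 (ZT0), 0.03 (ZT8), -0.08 (ZT16) and 0.08 (ZT24). The thick ascending limb markers were 0.22 higher at ZT4, 0.25 higher at ZT12, 0.18 higher at ZT16 and 0.20 lower at ZT0 (-0.20). Elsewhere they differed by 0.04 (ZT8), 0.01 (ZT20) and -0.04 (ZT24). Group SDs were 0.22 (NRF) and 0.17 (DRF) for the former at ZT4. For the latter at ZT0 they were 0.27 (NRF) and 0.24 (DRF). These marker means were not tested. Of the 7 connecting tubule and principal cell markers 5 differed in their mean over the clock, beside 9.67% of all genes, Aqp2 (0.41) and Aqp3 (0.15) higher under DRF and Scnn1b (-0.16), Scnn1g (-0.18) and Hsd11b2 (-0.14) lower. The part of these marker shifts in the members' differences was not tested. None of the members differed between ZT24 and ZT0, the same clock time a day apart, in limma with adjustment: 0 of 10 under NRF, beside 0.595% of all genes, with 2 members at an unadjusted p under 0.05, and 0 of 10 under DRF, beside 0.0% and with 1 member at an unadjusted p under 0.05.

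Several profiles under DRF had a pair of maxima within a day. A 12-h component added to the 24-h cosine was called under DRF for Trpm6, Calb1 and Slc8a1, 3 of 10 members, beside 30.9% of all genes. Its amplitude was 0.24 for Trpm6 (adjusted p = 0.00572, limma), 0.31 for Calb1 (adjusted p = 0.00764) and 0.29 for Slc8a1 (adjusted p = 0.0138). The 12-h maxima fell at 2.82 and 14.8 h for Trpm6, 3.78 and 15.8 h for Calb1, and 4.57 and 16.6 h for Slc8a1. For Calb1 the DRF means were 778 ± 163 CPM at ZT4 and 813 ± 115 CPM at ZT16, with 486 ± 59.6 CPM at ZT8 between them and 655 ± 162 CPM at ZT20 after. Under NRF no member was called (0 of 10 in limma, beside 1.27% of all genes; 2 members at an unadjusted p under 0.05), with an amplitude of 0.24 for Slc8a1 (adjusted p = 0.292), and the difference between regimens in this component was not tested. The DRF call was lost for Trpm6 without replicate 2 (adjusted p = 0.0622, limma), for Calb1 without replicate 3 (0.0566) and for Slc8a1 without replicate 1, 2 or 3 (up to 0.0917). The DRF amplitudes of the 24-h cosine given above for these 3 genes come from a fit without this component.

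The libraries' inner medulla marker level moved with most members inside the groups. Over the 56 libraries, after each group's mean was taken away, Pearson's r with the inner medulla level was 0.83 for Cldn19 and 0.51 for Umod. It was -0.65 for Trpv5, -0.66 for Trpm6, -0.69 for Calb1, -0.68 for S100g and -0.66 for Slc8a1, the genes of cortical segments. Egf (-0.03), Casr (0.01) and Cldn16 (-0.15) were near 0. Each point pairs values of 1 library, so these are descriptions. Among the 7 times, the group mean of the inner medulla level (± SD) was lower under DRF at ZT0 by 1.02 (5.11 ± 1.13 against 6.13 ± 0.98). It was higher at ZT16 (6.31 ± 0.67 against 5.65 ± 1.48) and ZT20 (6.22 ± 1.39 against 5.42 ± 1.06). These differences in level were not tested. With this level in the fit, the interaction of Slc8a1 (adjusted p = 2.24e-06, limma), Calb1 (0.000342) and Cldn16 (1.77e-06) and the lower Casr (-0.19, adjusted p = 0.00116) were called as before. S100g then had a higher mean over the clock under DRF (0.21 ± 0.06, adjusted p = 0.0134, limma), against 0.17 ± 0.08 without the term (adjusted p = 0.188).

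**Figure D5:**
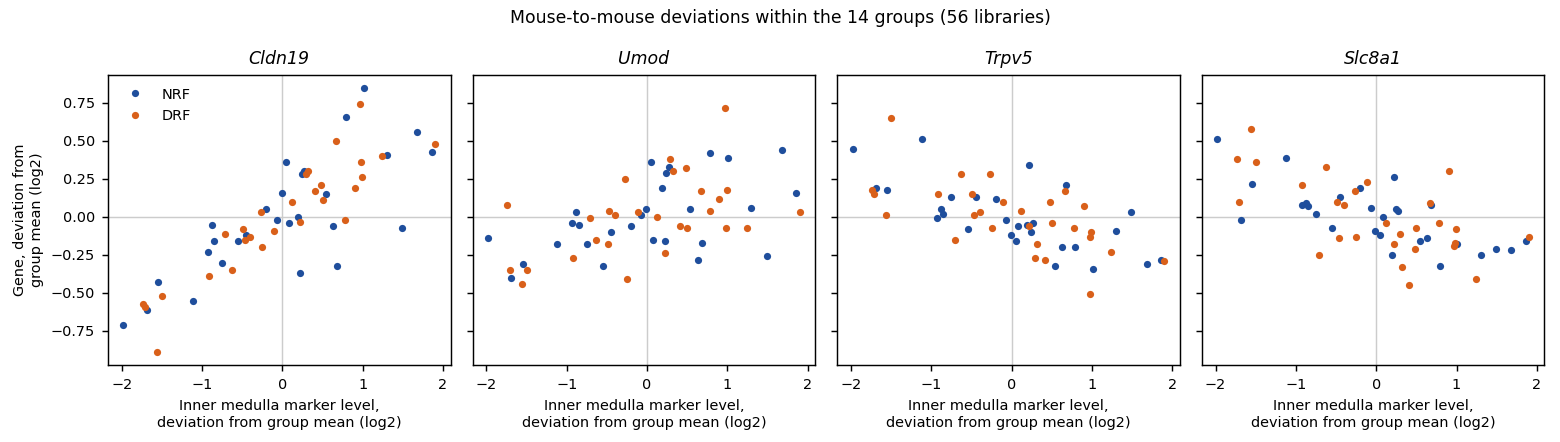
Deviation of each library from its group mean for Cldn19, Umod, Trpv5 and Slc8a1 (y axis, log2) against the deviation of the inner medulla marker level (x axis, log2), NRF in blue and DRF in orange, 56 libraries. Cldn19 (r = 0.83) and Umod (0.51) rise with it, and Trpv5 (-0.65) and Slc8a1 (-0.66) fall.

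The genes around the members were taken from 4 lists of related genes, of which 40 of 43 could be tested (Cldn14, Cldn18 and Klk1 could not). Of these, 24 were rhythmic under NRF (54.6% of all genes were), 19 under DRF (41.0%) and 11 under both (26.8%), and the rhythm of 20 differed between regimens, which is 20 of 40 beside 50.0% of all genes. Among 8 other genes of the transcellular calcium route 5 were called in the interaction, among 12 other magnesium genes 6, among 7 of the thick ascending limb route 2, and among 13 of hormone control 7. Vdr, the vitamin D receptor, had the smallest interaction p of the lists (adjusted p = 1.37e-09, limma), with a peak at 7.14 h under NRF and 21.9 h under DRF and a shift of -9.27 ± 0.752 h. Slc41a1, a magnesium transporter, followed (adjusted p = 5.74e-09, limma): its amplitude was 0.47 ± 0.05 with a peak at 9.00 h under NRF and 0.16 ± 0.04 with a peak at 0.798 h under DRF. Atp2b4, a plasma membrane calcium pump, peaked at 21.2 h under NRF with an amplitude of 0.32 ± 0.05 and had an amplitude of 0.13 ± 0.05 under DRF that was not called (interaction adjusted p = 2.05e-06, limma). Vapa, a membrane protein of vesicle traffic, changed from a peak at 20 h under NRF (0.12 ± 0.02) to one at 7.68 h under DRF (0.07 ± 0.02; interaction adjusted p = 4.41e-06, limma).

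The mean over the clock was called higher under DRF for 1 of these 40 genes, beside 5.15% of all genes, and lower for 4, beside 4.52%. Sgk1, a kinase induced by mineralocorticoids and glucocorticoids, rose by 0.50 ± 0.13 (adjusted p = 0.00871, limma). Nr3c2, the mineralocorticoid receptor, was lower (-0.15 ± 0.05, adjusted p = 0.0334, limma), as were Slc41a3 (-0.14 ± 0.05, adjusted p = 0.0471), Slc41a1 (-0.12 ± 0.03, adjusted p = 0.0143) and Cnnm2 (-0.10 ± 0.03, adjusted p = 0.0122), the last named after its value was seen. Slc41a1, Slc41a3 and Cnnm2 are all membrane proteins linked to magnesium transport. They were 3 of the 12 magnesium genes tested, and none of the 12 was called higher. Fxyd2 (0.12, adjusted p = 0.082, limma) and Pcbd1 (0.12, adjusted p = 0.093) were higher without a call. The median difference of the 12 was -0.04.

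Over the 14 group means the gene most like Slc8a1 was Kl, which encodes the calcium and phosphate regulator klotho (r = 0.952), and next came Defb1 (r = 0.923). Calb1 was most like Defb1 (r = 0.953) and Bmp2 (0.921). S100g was nearest to Nsfl1c (0.905) and Zbtb8os (0.888), and Trpv5 to Gse1 (0.855) and Fam174c (0.848). Trpm6 resembled Ckmt1 (0.886) and Arhgef10 (0.867), and Egf resembled Acss3 (0.917) and Mme (0.906). For the thick ascending limb members the closest genes were Phkb (0.882) and Zfp609 (0.858) for Umod, Asb15 (0.833) and Rragd (0.809) for Casr, Arhgef17 (0.929) and Ppfia1 (0.926) for Cldn16, and Mep1b (0.937) and Slc12a4 (0.887) for Cldn19. These coefficients were the highest among all genes tested other than the members and describe likeness over 14 means only.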

How the data were processed

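Poly(A) RNA of 56 kidneys was sequenced as paired 100-base reads on a BGISEQ-500. Per the submitters' processing notes HISAT2, Bowtie2 and RSEM were used on GRCm38.p6 (mm10). The values deposited by the authors under the name tpm were treated as a score, since they were not linear. Each was log2(CPM + 1) divided by a gene length and multiplied by a factor of its library. Whole reads were recovered from them for 14741 of 17027 genes (86.6%), those whose values came out near whole reads. Within these genes 99.62% of values lay within 0.05 of a whole read, a share that this selection favours. The other genes were not used. Slc8a1 and Trpm6 came out whole at lengths found by search (2934 and 6508 bases), not at their annotated ones. CPM used effective library sizes (24.8 to 28.9 M) estimated from the deposited values. Genes with a mean of at least 1 CPM entered limma 3.58.1 (R 4.3.3) on log2(CPM + 1), with Benjamini-Hochberg adjustment over 11931 genes. The mean over the clock weighted ZT0 and ZT24 as 1 time. The NRF ZT24 column that carries no number of the labels was used as a mouse of that group. The study's rhythm tool was not run; a cosine model took its place. Related genes were named by the smallest interaction p (4) and the largest change in mean (4), and similar genes by the 2 highest r outside the members. The members and lists were chosen with earlier results of these data known. The fits were checked on simulated data. Alternatives were other scalings, pseudocounts and filters, leaving out mice or ZT24, a replicate block and an inner medulla term.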

Additional observations from a re-analysis of the deposited data

Results flagged for a closer look

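The 24-h rhythm differed between NRF and DRF by the interaction test in limma for 4 members: Calb1 (adjusted p = 0.00611), S100g (0.043), Slc8a1 (4.07e-05) and Cldn16 (2.13e-06).

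Single mice stood far from the other 3 of their group in 9 of the 140 gene and group combinations, where chance alone gives about 1 in 20, or 7. For Trpv5 these were the highest mouse at NRF ZT4 (47.2 CPM, others 29.8 to 32.2) and the lowest at NRF ZT12 (29.4 CPM, others 32.1 to 32.6). For S100g they were the highest at NRF ZT8 (564 CPM, others 407 to 432), the lowest at DRF ZT8 (429 CPM, others 560.1 to 581) and the highest at DRF ZT16 (525 CPM, others 409.5 to 418). For Slc8a1 they were the highest at NRF ZT4 (559 CPM, others 330.1 to 361) and the lowest at NRF ZT12 (170.4 CPM, others 204 to 210). For Cldn19 they were the highest at NRF ZT0 (101 CPM, others 44.0 to 47.1) and the highest at DRF ZT16 (78.0 CPM, others 54.5 to 56.7). The Trpv5 and Slc8a1 values at NRF ZT4 came from 1 mouse, replicate 1, with an inner medulla level of 3.73. Both Cldn19 values came from mice with levels of 7.14 and 7.28.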

How the results depend on the processing

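Of 36 called member results, 9 kept their call under every alternative run, among them the interaction of Slc8a1, Calb1 and Cldn16 and the lower mean of Casr; over all 450 repeats 76 lost the call, and of the 216 repeats of a signed difference 0 changed sign. Members that were not called gained a call in 16 repeats. The number of members called with a different mean was 2 with TPM scaling (Trpm6 added) and 2 with the inner medulla term (S100g added), against 1. At ZT16 it was 0 with TPM scaling, with the deposited values and with no filter, and 3 with the inner medulla term, against 1, and at ZT24 it was 2 with that term, against 1. Leaving out the mice of 1 replicate number gave 2 to 4 members for the NRF rhythm and 3 to 6 for the DRF rhythm. It gave 1 to 2 at ZT0, 2 to 6 at ZT4, 0 to 3 at ZT8, 1 to 1 at ZT12, 0 to 0 at ZT16, 0 to 2 at ZT20 and 0 to 1 at ZT24, and 1 to 3 for the 12-h component under DRF; these fits hold fewer mice. Replicate numbers do not pair the mice: same-numbered deviations had a median r of 0 and a lowest of -0.798, and 12 of 55 numbered libraries were closest to their own number. With the replicate as a block, which drops the unnumbered library, the NRF rhythm was called in 4 members (Trpm6 and Egf lost), the DRF rhythm in 5 and the interaction in 4, and Calb1 gained a call at ZT0 (adjusted p = 0.0484, limma). Alternatives with the inner medulla term were chosen after seeing the data. The causes were not tested.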
